A study of Homo sapiens with 6 samples.

Results

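The genes described here are the 4 fibroblast growth factor (FGF) receptors FGFR1, FGFR2, FGFR3 and FGFR4, the decoy receptor FGFRL1, the carrier FGFBP1 and the docking adaptor FRS2. They were taken by symbol from a deposited table of 22503 gene rows, and all 7 had a row. RNA was sequenced from CAL-27, an established human tongue squamous carcinoma line that keeps traits of keratinocytes. Cells received DHA or the solvent DMSO for 48 h, with 3 libraries per group and no other agent named. DHA was read as dihydroartemisinin because the series concerns artemisinin derivatives, and the labels give no dose. CAL-27 is 1 line. The labels do not say that libraries came from separate cultures, so every p-value measures the spread between these libraries, which may be technical. Members were chosen by role, with the DHA and DMSO values of these same libraries known. Their differences are therefore a description: the adjusted p-values beside them place each gene in the fit of all genes and serve as no independent test of the family.

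FGF ligands are held on heparan sulfate at the cell surface and in the matrix. FGFBP1 is a secreted protein that binds such ligands and carries them off the matrix to their receptors. A ligand, with heparan sulfate, pairs receptors in the membrane, whose intracellular tyrosine kinase domains then phosphorylate each other and FRS2. FRS2 recruits GRB2 and PTPN11 and so passes the signal to the RAS-ERK cascade, which switches on feedback genes such as the Sprouty genes and ETV5. FGFRL1 binds ligands and heparin but lacks the tyrosine kinase domain. In stratified epithelia, FGFR2 and FGFR3 are mostly spliced to the epithelial IIIb forms, which read ligands from the underlying stroma. A gene count does not separate these forms from the mesenchymal IIIc forms.

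The 4 members that passed the threshold are shown first as the 300 bases around their starts, from 250 bases before to 50 bases after, to let the receptor promoters be compared with that of the carrier. Sequences are from RefSeq on GRCh38.p14 and run 5′ to 3′ on the strand of the gene. The first listed window of each gene is given, since 5 windows were listed for FGFR2 and 2 for FGFR4. Capitals mark GC boxes (GGGCGG, or CCGCCC on the other strand) and CCAAT boxes (CCAAT, or ATTGG on the other strand). The FGFR2 window is chr10:121598395-121598694 on the minus strand, and the FGFR3 window is chr4:1793043-1793342 on the plus strand. The FGFR4 window is chr5:177086665-177086964 on the plus strand, and the FGFBP1 window is chr4:15938691-15938990 on the minus strand.
FGFR2: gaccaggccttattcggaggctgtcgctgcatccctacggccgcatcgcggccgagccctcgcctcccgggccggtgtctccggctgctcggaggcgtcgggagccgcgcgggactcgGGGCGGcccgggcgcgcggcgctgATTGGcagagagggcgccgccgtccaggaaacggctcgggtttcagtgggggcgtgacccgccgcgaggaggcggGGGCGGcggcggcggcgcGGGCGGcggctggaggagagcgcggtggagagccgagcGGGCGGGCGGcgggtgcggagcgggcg
FGFR3: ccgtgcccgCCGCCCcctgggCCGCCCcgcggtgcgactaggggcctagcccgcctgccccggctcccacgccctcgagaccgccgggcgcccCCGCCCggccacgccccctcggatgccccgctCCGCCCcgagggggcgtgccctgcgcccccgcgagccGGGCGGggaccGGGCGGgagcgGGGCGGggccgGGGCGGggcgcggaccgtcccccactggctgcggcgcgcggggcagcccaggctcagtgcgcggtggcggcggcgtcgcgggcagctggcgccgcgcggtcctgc
FGFR4: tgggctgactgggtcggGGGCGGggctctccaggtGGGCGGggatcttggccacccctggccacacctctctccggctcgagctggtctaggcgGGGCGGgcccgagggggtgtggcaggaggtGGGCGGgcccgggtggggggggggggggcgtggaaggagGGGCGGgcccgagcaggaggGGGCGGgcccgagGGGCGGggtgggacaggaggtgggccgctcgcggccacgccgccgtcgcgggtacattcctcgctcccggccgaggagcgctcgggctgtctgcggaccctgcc
FGFBP1: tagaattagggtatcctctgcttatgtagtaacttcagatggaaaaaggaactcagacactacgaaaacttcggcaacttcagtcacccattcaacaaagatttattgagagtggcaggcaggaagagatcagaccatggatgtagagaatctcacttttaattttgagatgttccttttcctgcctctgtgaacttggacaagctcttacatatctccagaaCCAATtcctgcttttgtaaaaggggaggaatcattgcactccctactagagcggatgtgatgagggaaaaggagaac

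The receptor windows were rich in G and C, and the carrier window was not. GC content was 79.3% for FGFR2, 86.3% for FGFR3 and 78.7% for FGFR4, against a median of 58.7% over 35116 windows of the same length. It was 42.0% for FGFBP1, and 14.9% of all windows were lower. Of all windows, 99.9% had a lower GC content than that of FGFR3. The GC box, a motif bound by Sp1-type factors, occurred 5 times in the FGFR2 window, where 1 pair of matches overlapped. It occurred 8 times in that of FGFR3, 7 times in that of FGFR4 and 0 times in that of FGFBP1, and 45.0% of all windows held at least 1. A CCAAT box stood in the windows of FGFR2 and FGFBP1, as it did in 34.6% of all windows. The ratio of observed to expected CpG was 1.15 for FGFR2, 0.91 for FGFR3, 0.70 for FGFR4 and 0.23 for FGFBP1, with a median of 0.58 over all windows.

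The windows of the other members with an entry, FGFRL1 and FRS2, had GC contents of 68.3% and 61.0%. The FGFRL1 window, chr4:1012214-1012513 on the plus strand, is around the listed start and lies inside the span of the gene, downstream of its first base. FGFRL1 held 4 GC boxes, 1 CCAAT box and 1 E-box (CACGTG, in 7.3% of all windows). FRS2 held 3 GC boxes and 1 ETS core (CCGGAAG, in 10.3%). None of the 6 windows held the TATA box TATAAA (in 11.5% of all windows), the AP-1 site TGANTCA (7.7%), the CRE TGACGTCA (1.8%) or the CHOP-ATF4 element TGATGNAA (3.6%). Each motif was searched on both strands. A match is a run of letters and not a shown site, and the absence of a match holds for these windows only.

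The libraries held 35980670 to 38120267 counts, and levels are given as CPM, the reads of a gene scaled to the size of its library. DMSO 1 and DHA 3 were the libraries farthest from the rest of their group. DHA 2 was nearly as far, with a root-mean-square log2 distance of 0.461 against 0.473 for DHA 3. Without DMSO 1 and DHA 3 the same 4 members were called, at a setting where 14.6% of all genes tested passed. Leaving out DMSO 1 with DHA 2 was not tried. Without DMSO 1 alone 2 members were called among 178 genes, and without DHA 3 alone 3 members among 789 genes. Without DMSO 2 alone 0 members were called among 46 genes, and without DMSO 3 alone 1 member among 168 genes. Without DHA 1 alone 0 members were called among 16 genes, and without DHA 2 alone 3 members among 189 genes. In bulk RNA, fewer cells with a transcript and less of it per cell cannot be told apart. Transcripts of 3 receptors and of the carrier were lower in DHA, while those of the decoy and the adaptor were not past the threshold. FGFR3 stood at 49.8% of its DMSO level, FGFR4 at 54.9%, FGFR2 at 55.5% and FGFBP1 at 64.9%. In the edgeR fit over 14649 genes, 6 members were tested, and 4 of the 6 were lower in DHA at an adjusted p under 0.05 and 0 were higher. Over all genes tested, 2.70% passed in either direction and 1.60% passed as lower. In 5 of the 6, every DHA library was below every DMSO library, which held for 13.5% of all genes tested. The median log2 fold change of the 6 was -0.74, and over all genes tested it was 0. Since the members were chosen from this contrast, nothing is read from these counts.

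**Figure D1:**
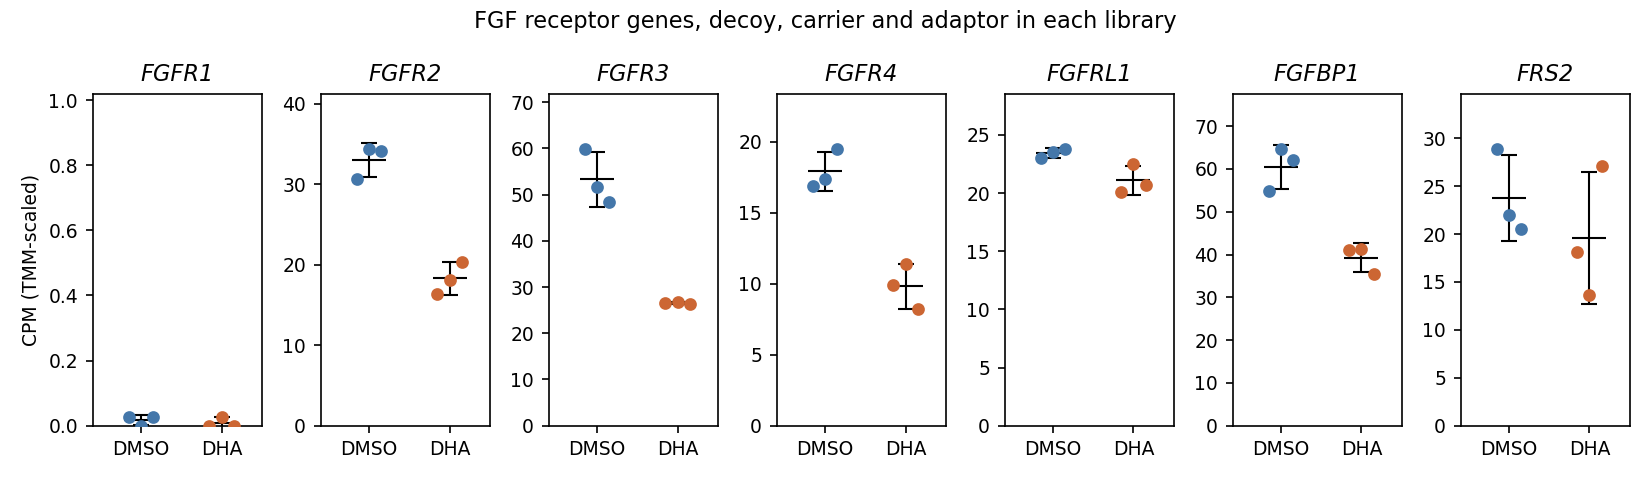
Level of each of the 7 genes in CPM (TMM-scaled, linear axes that start at 0 and differ between panels) in the 3 DMSO and 3 DHA libraries; points are libraries, horizontal lines are means and bars are SD. FGFR2, FGFR3, FGFR4 and FGFBP1 show a clear gap between the groups, the FRS2 groups overlap, and FGFR1 lies at 0 to 1 read per library.

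Of the receptors, FGFR3 was the most abundant by CPM and had the largest fold change in the fit of all 6 libraries. The order of the fold changes was not stable. Without DMSO 1 the log2 fold changes of FGFR2, FGFR3 and FGFR4 were -0.9, -0.91 and -0.91. Without DMSO 1 and DHA 3 they were -0.98, -0.9 and -0.79. FGFR3 (chr4:1793293-1808867, plus strand, GRCh38.p14) is a receptor of stratified epithelia and growth plate cartilage. It was at 59.9, 51.7 and 48.3 CPM in DMSO 1 to 3 and at 26.6, 26.7 and 26.4 CPM in DHA 1 to 3. The groups were far apart, and the coefficient of variation was 11.2% in DMSO and 0.616% in DHA. The means were 53.3 ± 5.99 and 26.5 ± 0.163 CPM (SD, n = 3). The log2 fold change was -1.01 ± 0.13 (SE; 95% interval -1.31 to -0.70; adjusted p = 0.0108, edgeR quasi-likelihood test). It ranked 35 by p among all genes, and 131 genes past the threshold had a steeper fall. The call was lost without DMSO 2 (adjusted p = 0.0503) and without DHA 1 (adjusted p = 0.0681), with log2 fold changes from -1.07 to -0.91 over the 6 fits that leave out 1 library. The annotation also holds the pseudogenes FGFR3P1, FGFR3P5 and FGFR3P6, so a part of the count could be split with or lost to near copies.

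FGFR2 (chr10:121478330-121598458, minus strand) encodes the receptor whose IIIb form binds FGF7 and FGF10. Its level was 30.6, 34.4 and 34.1 CPM in DMSO 1 to 3 and 16.4, 18.1 and 20.4 CPM in DHA 1 to 3. The groups were far apart: the highest DHA library was DHA 3 and the lowest DMSO library DMSO 1. The means were 33.0 ± 2.15 and 18.3 ± 2.0 CPM (SD, n = 3). The log2 fold change was -0.85 ± 0.14 (SE; 95% interval -1.17 to -0.53; adjusted p = 0.0203, edgeR), and the gene ranked 117 by p. The call was lost without DMSO 2 (adjusted p = 0.0875), DMSO 3 (0.0625) or DHA 1 (0.127), while the log2 fold change stayed between -0.93 and -0.78.

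FGFR4 (chr5:177086915-177098144, plus strand) encodes the receptor of the endocrine ligand FGF19 in liver and was the least abundant of the 3 detected receptors. It was at 16.9, 17.4 and 19.5 CPM in DMSO 1 to 3 and at 9.88, 11.4 and 8.23 CPM in DHA 1 to 3. These values rest on 626 to 742 reads per DMSO library and 305 to 413 reads per DHA library. The DHA libraries, with DHA 3 lowest, were all below the DMSO libraries. The means were 17.9 ± 1.38 and 9.84 ± 1.60 CPM (SD, n = 3), which gives a log2 fold change of -0.87 ± 0.17 (SE; 95% interval -1.24 to -0.49; adjusted p = 0.0310, edgeR). The call held without DHA 2 and without DHA 3 and was lost without DMSO 1 (adjusted p = 0.0622), DMSO 2 (0.101), DMSO 3 (0.101) or DHA 1 (0.147).

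FGFR1, a receptor of mesenchymal and many other cell types, was at the limit of detection. Its counts were 1, 0 and 1 in DMSO 1 to 3 and 0, 1 and 0 in DHA 1 to 3. A count of 0 allows up to 3 reads, which is 0.0788 to 0.083 CPM per library, and all 6 libraries were under that limit. FGFR1 did not enter the test, and no fold is given. LETM2 and AC087623.1 on the opposite strand overlap 1.0% and 1.13% of its exon bases, whereas the exons of the other 6 members overlap those of no other gene in GENCODE 29.

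FGFRL1, the decoy (chr4:1010212-1026898, plus strand), kept a narrow range. It was at 23.0, 23.5 and 23.8 CPM in DMSO 1 to 3 and at 20.1, 22.5 and 20.7 CPM in DHA 1 to 3. The groups did not overlap, but the gap between their nearest libraries was small. The log2 fold change was -0.15 ± 0.13 (SE; 95% interval -0.44 to 0.14; adjusted p = 0.524, edgeR), so that levels from 73.6% to 110% of DMSO lay within the interval. It was past the threshold in none of the 6 fits that leave out 1 library.

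FGFBP1 (chr4:15935577-15938740, minus strand), known for high levels in squamous carcinomas, was the member with the highest level by CPM and per length. It was at 54.8, 64.7 and 62.1 CPM in DMSO 1 to 3 and at 41.0, 41.4 and 35.5 CPM in DHA 1 to 3. Every DHA library was below the lowest DMSO library, DMSO 1. The means were 60.5 ± 5.11 and 39.3 ± 3.31 CPM (SD, n = 3), which gives a log2 fold change of -0.62 ± 0.13 (SE; 95% interval -0.92 to -0.32; adjusted p = 0.0428, edgeR). In this fit it was the call nearest to the threshold of the 4. The call was lost whichever library was left out, with adjusted p-values from 0.0505 to 0.18 and log2 fold changes from -0.69 to -0.55. With an offset for GC content and length, FGFBP1 was at -0.82 (adjusted p = 0.00426, edgeR). FGFR2 was at -0.83 (0.00822) and FGFR4 at -0.82 (0.0108) in that fit.

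FRS2, the adaptor (chr12:69470388-69579793, plus strand), varied most between libraries of 1 group among the 6 tested members. It was at 28.9, 22 and 20.5 CPM in DMSO 1 to 3 and at 18.1, 13.6 and 27.1 CPM in DHA 1 to 3. DHA 3 lay above DMSO 2 and DMSO 3, and the groups overlapped. The coefficient of variation was 18.8% in DMSO and 35.2% in DHA. The log2 fold change was -0.28 ± 0.25 (SE; 95% interval -0.83 to 0.27; adjusted p = 0.533, edgeR). Without DHA 3 it was -0.58 (adjusted p = 0.0975), and without DHA 2 it was -0.08.

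**Figure D2:**
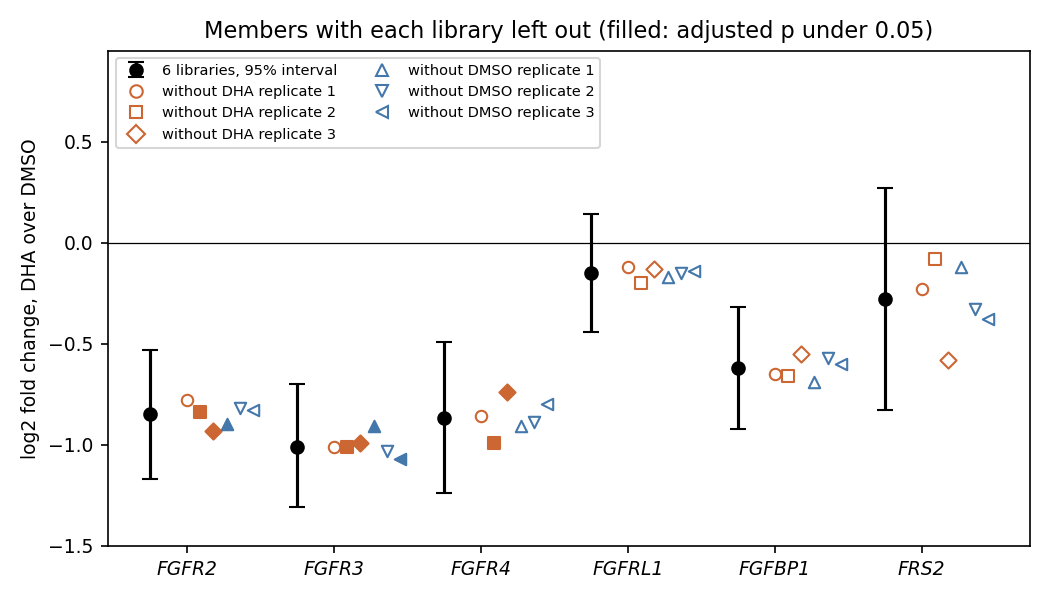
Log2 fold change (DHA over DMSO) of the 6 tested members with all 6 libraries (black, bars are the 95% interval) and with each library left out in turn (filled symbols: adjusted p under 0.05, edgeR). FGFR3 keeps its call in 4 of the 6 fits, FGFR2 in 3, FGFR4 in 2 and FGFBP1 in 0, and each stays below 0 in all 6.

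The plot of fold change against level sets the 6 tested members among all genes, of which 234 were called lower and 161 higher.

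**Figure D3:**
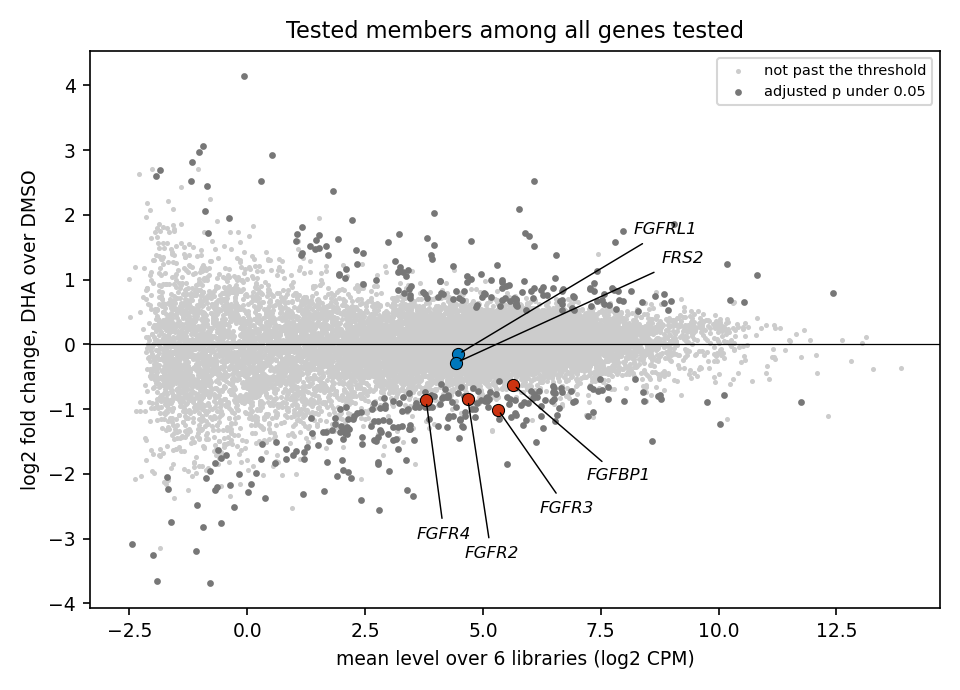
Log2 fold change (DHA over DMSO) against mean level over the 6 libraries (log2 CPM) for the 14649 genes tested; each small point is a gene, dark where the adjusted p is under 0.05. FGFR2, FGFR3, FGFR4 and FGFBP1 (red) are among 234 genes called lower, of which 131 fell more steeply than FGFR3. FGFRL1 and FRS2 (blue) did not pass the threshold.

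Levels of different genes were compared as CPM per kb of exon. In DMSO the order was FGFBP1 at 44.5 ± 3.76, FGFR3 at 11 ± 1.24, FGFRL1 at 5.65 ± 0.107, FGFR2 at 4.36 ± 0.284, FGFR4 at 3.71 ± 0.286 and FRS2 at 3.28 ± 0.618 CPM per kb (SD, n = 3). FGFBP1, FGFR3 and FGFRL1 were each separated from the next gene in every DMSO library. FGFR4 and FRS2 overlapped, and FGFR2 stood between 4.03 and 4.54 against 3.50 to 4.04 for FGFR4. In DHA the order was FGFBP1 at 28.9 ± 2.43, FGFR3 at 5.48 ± 0.0337, FGFRL1 at 5.09 ± 0.295, FRS2 at 2.70 ± 0.951, FGFR2 at 2.42 ± 0.264 and FGFR4 at 2.04 ± 0.331 CPM per kb. FRS2 overlapped both FGFR2 and FGFR4 there, and FGFR2 and FGFR4 overlapped each other. FGFR3 and the decoy were far apart in DMSO, while in DHA they stood at 5.44 to 5.50 and 4.86 to 5.42 CPM per kb. The order below FGFBP1 rests on the length used. With the longest transcript FGFR2 (7.56 CPM per kb) stood above FGFRL1 (6.44 CPM per kb) in DMSO, and with the coding length FGFR3 (11 CPM per kb) stood below FGFRL1 (14 CPM per kb) and FRS2 (12.9 CPM per kb) in DHA.

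Summed per length, the 4 receptors were at 19.9, 18.8 and 18.5 CPM per kb in DMSO 1 to 3 and at 9.71, 10.3 and 9.84 CPM per kb in DHA 1 to 3. The sum in DHA was 0.521 times that in DMSO. The mean share of each receptor in the sum moved by less than the SD of its share in the DMSO libraries. FGFR3 made up 57.6 ± 4.22% of it in DMSO and 55.2 ± 1.48% in DHA, FGFR2 22.9 ± 2.30% and 24.4 ± 2.68%, and FGFR4 19.5 ± 2.13% and 20.5 ± 2.91% (SD, n = 3). With the longest transcript as the length, the FGFR3 share was 47.4% in DMSO and 44.9% in DHA.

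The ratio of the decoy to the summed receptors, which does not depend on library scaling, was 0.278, 0.302 and 0.311 in DMSO 1 to 3 and 0.500, 0.529 and 0.508 in DHA 1 to 3. Its mean in DHA was 1.73 times that in DMSO, and the groups were far apart. The ratio rests on the exon lengths and was not computed with the other gene lengths. The ratio of FGFBP1 to the summed receptors went from 2.34 ± 0.275 to 2.91 ± 0.233 and that of FRS2 from 0.172 ± 0.0253 to 0.273 ± 0.0998 (SD, n = 3). The FRS2 ratio overlapped between groups, with 0.182 in DHA 2 and 0.20 in DMSO 1. These ratios were not tested, since both of their sides come from the contrast on which the members were selected.

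**Figure D4:**
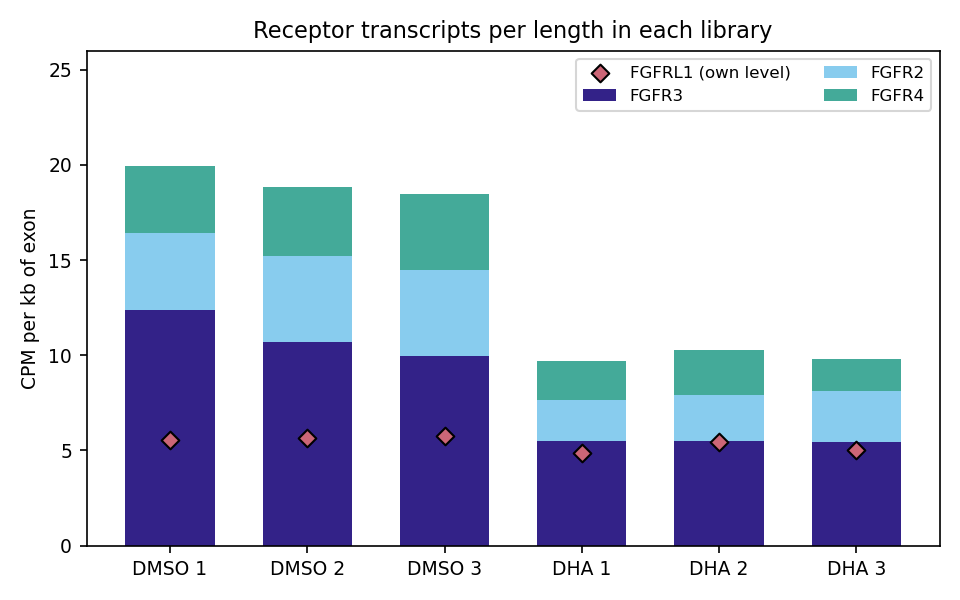
Levels per length (CPM per kb of exon) in each library; stacked bars are FGFR3, FGFR2 and FGFR4, and diamonds are the level of FGFRL1 on the same axis (FGFR1 is too low to be seen). The stacks reach 18.5 to 19.9 in DMSO and 9.71 to 10.3 in DHA, while FGFRL1 stays between 4.86 and 5.75.

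The other genes of the pathway were described by 8 lists of ligands, surface and intracellular partners. Over these lists edgeR called 1 tested gene, ETV5. Against these counts, 2.70% of all genes tested were called by edgeR, 7.75% by DESeq2 and 2.49% by limma-voom, and 20.3% had an unadjusted p under 0.05 by edgeR. Of the 22 FGF ligand genes, 15 had a row and 6 were tested, and edgeR called 0, with 3 at an unadjusted p under 0.05 (DESeq2 called 1 and limma-voom 0). Their median log2 fold change was -0.50. FGF11, an intracellular member of the ligand family, was the most abundant by CPM at 22.7 ± 9.55 CPM in DMSO against 17.5 ± 5.06 CPM in DHA. FGF1, a ligand of all the receptors, was at 3.11 ± 0.591 and 1.43 ± 0.154 CPM (log2 fold change -1.12 ± 0.26 SE, adjusted p = 0.0540, edgeR). FGF2 was at 7.42 ± 3.36 and 13.2 ± 5.14 CPM (adjusted p = 0.246). FGF7, whose usual source is stroma, had a mean of 0.0133 CPM over the 6 libraries, and it was not tested. FGF1 and FGF2, like the other genes of this and the following paragraphs that did not pass and are not the most abundant of their list, were chosen after their values were seen.

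Of the 16 co-receptor and carrier genes, 8 were tested, and edgeR called 0, with 3 at an unadjusted p under 0.05 (DESeq2 called 2 and limma-voom 0). Their median log2 fold change was -0.23. AGRN, a heparan sulfate proteoglycan of basement membranes and the most abundant of them by CPM, averaged 883 ± 131 CPM in DMSO against 688 ± 24.1 CPM in DHA (adjusted p = 0.190, edgeR). HSPG2, which encodes perlecan of the basement membrane, was at 443 ± 101 and 265 ± 34.3 CPM (log2 fold change -0.74 ± 0.18 SE, adjusted p = 0.0630). The surface proteoglycan SDC4 was at 400 ± 27.8 and 481 ± 44.2 CPM (adjusted p = 0.269).

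The 13 tested genes of 20 that build or trim heparan sulfate chains all had a negative fold change, from -0.46 to -0.04 on the log2 scale, and 13 of 13 were negative under each of the 4 library scalings. Of all genes tested, 49.7% had a negative fold change with the main scaling. The median of the list was -0.25, and it reached -0.28 with upper-quartile scaling. The 4 scalings are thus near repeats of the same count, and the direction was not counted in the other fits. No gene among them passed: edgeR called 0, with 4 at an unadjusted p under 0.05, against 20.3% of all genes tested (DESeq2 called 1 and limma-voom 0). EXT2, a subunit of the chain polymerase and the most abundant of the list by mean CPM over the 6 libraries, averaged 218 ± 14.9 CPM in DMSO against 190 ± 5.45 CPM in DHA (adjusted p = 0.356), and its partner EXT1, above it in DMSO, averaged 229 ± 25.8 against 173 ± 5.04 CPM (adjusted p = 0.118). The sulfotransferase HS6ST1 was at 90.6 ± 9.78 and 66.9 ± 2.0 CPM (adjusted p = 0.109), and the epimerase GLCE was at 66.7 ± 6.92 and 48.6 ± 8.10 CPM (adjusted p = 0.153).

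Of the 9 membrane partners of the receptors, 5 were tested and edgeR called 0, with 1 at an unadjusted p under 0.05 (DESeq2 and limma-voom called 0 each). CDH2 was the most abundant by CPM at 39.1 ± 1.95 CPM in DMSO against 33.8 ± 4.11 CPM in DHA. All 27 adaptor and RAS-ERK relay genes were tested, with a median log2 fold change of -0.03. EdgeR called 0 of them, with 3 at an unadjusted p under 0.05 (DESeq2 called 1 and limma-voom 0). PTPN11, the phosphatase that docks on FRS2, was the most abundant at 236 ± 8.72 and 246 ± 68.1 CPM. GAB2, a docking adaptor, was at 14 ± 2.50 and 21.5 ± 2.51 CPM (adjusted p = 0.0967, edgeR).

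Of the 8 genes of receptor ubiquitination and sorting, edgeR called 0, with 1 at an unadjusted p under 0.05 (DESeq2 and limma-voom called 0 each), and the median log2 fold change was 0.12. HGS, of the endosomal sorting complex, averaged 125 ± 6.0 CPM in DMSO against 147 ± 9.04 CPM in DHA (adjusted p = 0.286). Of the 6 splicing regulators of the receptor forms, edgeR called 0, with 1 at an unadjusted p under 0.05 (DESeq2 and limma-voom called 0 each). PTBP1, the most abundant, was at 387 ± 23.8 and 384 ± 12.5 CPM. ESRP1, which promotes the epithelial forms, was at 177 ± 29.5 and 227 ± 38.2 CPM (adjusted p = 0.263).

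The feedback and output genes downstream of ERK were mixed in direction. Of 11 genes, 10 were tested, 1 was called higher and 0 lower by edgeR, with 6 at an unadjusted p under 0.05 (DESeq2 called 3 and limma-voom 1), and the median log2 fold change was 0.13. Over all genes tested, 2.70% were called by edgeR and 20.3% had an unadjusted p under 0.05. ETV5, an ETS transcription factor, was at 30, 30.5 and 33.6 CPM in DMSO 1 to 3 and at 56.1, 52.9 and 67.3 CPM in DHA 1 to 3. Every DHA library was above every DMSO library. ETV5 rose by 0.91 ± 0.14 (log2, SE) at an adjusted p of 0.0159 by edgeR, and kept the call in 4 of the 6 fits that leave out 1 library, with 0.0736 as the largest adjusted p, so that it was lost without DMSO 2 and without DHA 1. SPRY4, a Sprouty inhibitor of the relay, was at 3.61 ± 0.839 and 6.73 ± 0.791 CPM (adjusted p = 0.0732), and DUSP6, an ERK phosphatase, was at 25.6 ± 4.92 and 35.6 ± 4.88 CPM (adjusted p = 0.186). SPRY1 lay the other way, at 10.5 ± 1.46 and 7.05 ± 0.417 CPM (adjusted p = 0.117). By mean CPM over the 6 libraries ETV5 was the most abundant of the list, while in DMSO it was below SPRED2, which was at 42.7 ± 1.57 CPM there and 46.1 ± 6.41 CPM in DHA.

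**Figure D5:**
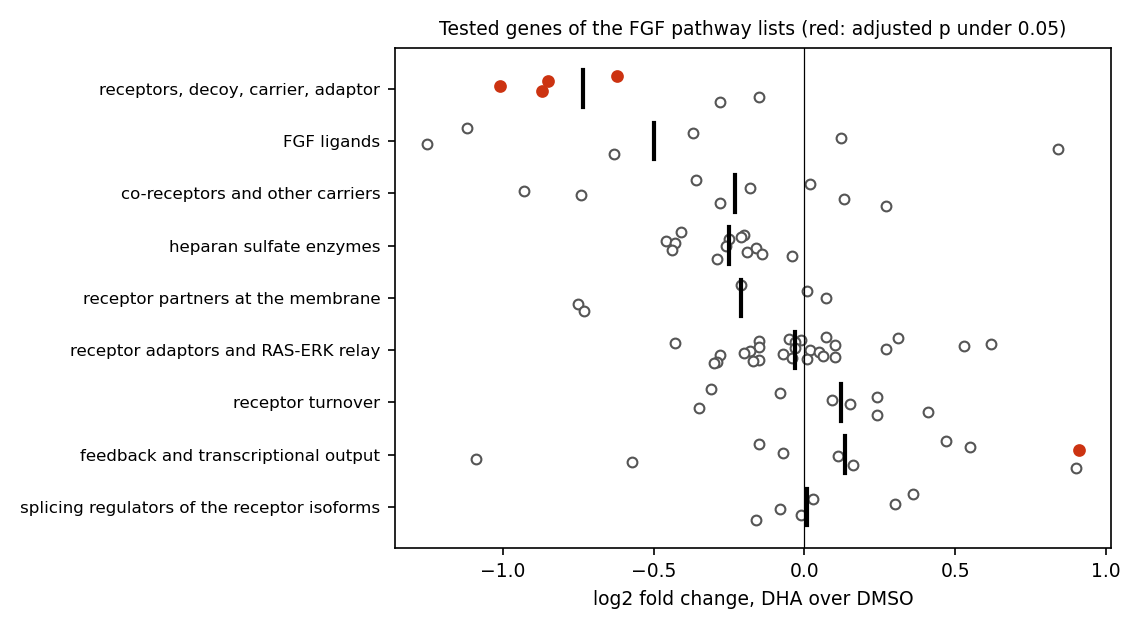
Log2 fold change (DHA over DMSO) of every tested gene of the receptor, decoy, carrier and adaptor group and of the 8 pathway lists; each point is a gene, red where the adjusted p is under 0.05 (edgeR), and black bars are medians. The medians run from -0.74 for the first group to 0.13 for feedback and output, and red points are FGFR2, FGFR3, FGFR4, FGFBP1 and ETV5.

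The terms attached to genes in the deposited table gave a further view, with the members left out of each count. All 7 members carried the FGF receptor signaling term, and 5 carried heparin binding. Of 28 other tested genes with the FGF receptor signaling term, edgeR called 0, with 9 at an unadjusted p under 0.05, against 20.3% of all genes tested (DESeq2 called 4 and limma-voom 0), and the median log2 fold change was -0.14. Of 83 other tested genes with the heparin binding term, edgeR called 2 higher and 4 lower, with 36 at an unadjusted p under 0.05 (DESeq2 called 21 and limma-voom 5), and the median was -0.29. The shares over all genes tested were 2.70% called by edgeR and 20.3% at an unadjusted p under 0.05. The matrix protein gene THBS1 fell from 567 ± 187 to 201 ± 36.8 CPM (adjusted p = 0.0193, edgeR), and FSTL1 and PTCH1 also fell. HBEGF, an EGF receptor ligand, rose from 35.1 ± 5.85 to 101 ± 11.7 CPM (adjusted p = 0.00498), and SERPINE2 also rose. Of 14 other tested genes with the transmembrane receptor tyrosine kinase term, edgeR called 0, with 2 at an unadjusted p under 0.05 (DESeq2 and limma-voom called 0 each), and their median was -0.04.

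Likeness was measured as Pearson's correlation of log2 CPM over the 6 libraries with 10634 genes of at least 5 CPM, as a description. Libraries of 1 group share their treatment, so any gene with a like group difference scores high. For FGFBP1 the closest genes included CREG1 (r = 0.989) and SAA2 (r = 0.988), and 51 genes had r above 0.95. For FGFR3 they included SLCO3A1 (r = 0.997) and COL4A2 (r = 0.995), and 185 genes had r above 0.95. For FGFR2 they were LOC100507516 (r = 0.997), ADGRF1 (r = 0.997) and TRIM6 (r = 0.996), and 105 genes had r above 0.95. FGFR3 fell by 1.01 on the log2 scale while SLCO3A1 differed by -0.42, so genes close by this measure differ in the size of the change.

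The 10 keratinocyte markers were all present, and their sum was 5250 to 6680 CPM in DMSO and 3920 to 4540 CPM in DHA. EdgeR called 1 higher and 0 lower, against 2.70% of all genes tested called in either direction. An unadjusted p under 0.05 by edgeR was found for 6 of the 10, in either direction, against 20.3% of all genes tested. The difference in the sum lay mostly in KRT17, at 1590 ± 827 and 716 ± 185 CPM, and KRT5, at 2320 ± 66.6 and 1840 ± 158 CPM. Neither passed the threshold. KRT6A rose by 0.75 on the log2 scale (adjusted p = 0.0402, edgeR), SFN and KRT14 had positive fold changes, and EPCAM and DSG3 differed by -0.05 and -0.03. TP63, CDH1 and DSC3 differed by -0.42, -0.34 and -0.58 (adjusted p = 0.162, 0.256 and 0.168, edgeR). Of the 10 markers, 7 had a negative fold change, against 49.7% of all genes tested. Every DHA library lay below every DMSO library for 5 markers and above for 2, against 1981 and 2090 of the 14649 genes tested. The part of these markers in the difference of the receptors was not tested. Fibroblast markers summed to 13.6 to 23.4 CPM in DMSO and 9.15 to 13.2 CPM in DHA, with 6 of the 8 that had a row under 1 CPM. Endothelial markers summed to 16.9 to 26.7 CPM and 15.6 to 18.8 CPM, with 5 of 6 under 1 CPM, and leukocyte markers to 48.3 to 52.1 CPM and 39.2 to 50.7 CPM, with 2 of 5 under 1 CPM. Of the leukocyte markers CD14 was called lower, from 5.64 ± 0.911 to 2.2 ± 0.479 CPM (adjusted p = 0.024, edgeR).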

How the data were processed

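Per the submitters' processing notes, the tools were fastp, HISAT2, HTSeq and R (3.2.0), with the build GRCh38. Tool settings, the annotation and the strand setting were not stated in what was used here, so reads of near copies or of overlapping genes may be split or lost. The authors deposited 1 table of raw read counts, a whole number for each gene and library.

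From these counts, genes were filtered by filterByExpr (minimum count 10, 14649 kept), scaled by TMM and tested with edgeR 4.0.16 (quasi-likelihood F test, two-sided, treatment as the factor, R 4.3.3). Benjamini-Hochberg adjustment ran over all tested genes at a threshold of 0.05. The procedure was checked on simulated counts with the same spread for every gene and no deviating libraries. That check does not show how the procedure behaves with libraries as uneven as these. Values are CPM, or CPM per kb of the exon union in GENCODE 29. The limit for a count of 0 is 3 counts and covers counting error only. Levels are mean ± SD of 3 libraries.

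Members and lists were chosen with earlier results of these data known, and the promoter motifs and annotation terms after the values were seen. The text names every member, up to 4 genes per list that passed and averaged at least 1 CPM, the most abundant gene of each list, and the 3 genes most like each of the 3 most abundant members (prior count 2). Further genes were picked for naming with their values in view. Some genes that fall under the rule are not reported here.

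The alternatives tried were upper-quartile scaling, DESeq2 size factors, unscaled totals, no filter, a mean of at least 5 CPM, the DESeq2 1.42.0 Wald test, limma-voom (limma 3.58.1), a replicate block, other gene lengths and each library left out. Added after the data were seen were an offset for GC content and length (known for 89.7% of tested genes), leaving out DMSO 1 with DHA 3, and GENCODE coding length. The last replaced RefSeq protein length, which was not used here.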

Additional observations from a re-analysis of the deposited data

How the results depend on the processing

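FGFR2, FGFR3, FGFR4 and FGFBP1 were called in all 10 alternatives other than the fits that left out 1 library. Their adjusted p-values there reached 0.0454 (FGFBP1, limma-voom). FGFRL1 and FRS2 were called in none of the 10, which include the fit without both DMSO 1 and DHA 3. All 6 tested members stayed negative throughout. With 1 library left out the number of members called ran from 0 to 3, the number of all genes called from 16 (without DHA 1) to 789 (without DHA 3), and the calls in the pathway lists from 0 to 3.

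Against 395 genes called, 649 were called with no filter, 252 at a mean of at least 5 CPM, 1135 by the DESeq2 Wald test, 1032 with the GC content and length offset and 2159 without DMSO 1 and DHA 3. Calls in the pathway lists, 1 in the main analysis, were 2 with upper-quartile scaling, 4 with no filter, 8 by DESeq2, 6 with the offset and 10 without DMSO 1 and DHA 3. The cause was not tested. The replicate block gave 1272 genes and 8 calls in the pathway lists, with adjusted p-values of 0.00169 for FGFR2, 0.000344 for FGFR3, 0.00375 for FGFR4 and 0.0142 for FGFBP1. The labels do not say whether equal numbers pair the libraries. Deviations of same-numbered libraries from their group means were correlated at 0.258, 0.119 and -0.0389. Differently numbered libraries were not compared in this way, so these values cannot settle whether the libraries are paired.

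By gene length, 2 members changed rank in the DMSO order of levels with the longest transcript and 4 with the coding length, and in the DHA order 3 with either. With the longest transcript the shares of FGFR2, FGFR3 and FGFR4 were 29.9%, 47.4% and 22.7% in DMSO and 31.5%, 44.9% and 23.6% in DHA. With the coding length those of FGFR2 and FGFR3 were 31.3% and 51.2% in DMSO and 33.0% and 48.7% in DHA. FGFR1 was under the limit of detection in all libraries, so its fold change was not assessed.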
